A study of Mus musculus with 4 samples.

Results

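The matrix of a tumor is the protein scaffold between its cells. The 44 genes described here encode collagens, laminins and other matrix proteins or the enzymes that crosslink them, and they were taken by symbol from the 32285 genes of the deposited feature lists, where all 44 were found. The question was which cells of a mouse mammary tumor hold the transcripts of each matrix protein, and whether these levels differed with the loss of Frmd8. Single-cell RNA sequencing with the 10x Genomics 3' v3 kit had been run on 4 mammary tumor samples, 1 library each. The sources used here do not state outright that each library came from a separate mouse, so p-values measure the spread between these libraries. Replicates 1 and 3 were MMTV-Cre-; Frmd8 fl/fl; PyMT mice (Cre-), and replicates 2 and 4 were MMTV-Cre+; Frmd8 fl/fl; PyMT mice (Cre+). Mice of both genotypes thus carried the floxed Frmd8 alleles and the PyMT transgene, and were 17 to 18 weeks old. The MMTV promoter drives both Cre and PyMT in the mammary epithelium. Per the methods of the study the floxed and the PyMT mice had a C57BL/6 background, the Cre- and Cre+ mice were littermates, and cells had passed a fluorescence-activated sort before loading. The study gives no background for the MMTV-Cre line and told littermates apart by coat color, yellow for Cre+ and black for Cre-.

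Fibrillar collagens (types I, III, V and XI) form the fibers of connective tissue, and decorin-like proteoglycans, fibronectin, fibrillin and periostin decorate or connect these fibers. Basement membranes are thin sheets under epithelium and around vessels, made of collagen IV, laminins, nidogens and perlecan. In the mammary gland, fibroblasts are known as the main source of fibrillar matrix, while epithelial, myoepithelial and vessel cells lie on basement membranes.

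Barcodes with at least 1000 UMIs (unique molecular identifiers, each marking 1 captured RNA molecule) and at most 20% mitochondrial UMIs were kept, which left 4922 and 5918 cells in Cre- replicates 1 and 3 and 5609 and 7123 cells in Cre+ replicates 2 and 4. Total UMIs per library ranged from 112729231 to 157662955. Cre+ replicate 4 had been deposited with all barcodes and another version of Cell Ranger, so its barcodes with 100 or fewer UMIs give the free RNA of that library. Pairs of libraries shared 6 to 16 cell barcodes. Classes were gated on marker genes that are not among the 44, and epithelial cells with basal or contractile markers were kept out of the tumor epithelial class. In the order Cre- 1, Cre- 3, Cre+ 2 and Cre+ 4, which holds for all values below, this gave 216, 319, 465 and 110 fibroblasts, 73, 56, 56 and 43 mural cells (pericytes and vascular smooth muscle), 187, 178, 140 and 86 endothelial cells, 16, 18, 10 and 176 myoepithelial cells and 2256, 1965, 2257 and 2452 tumor epithelial cells. Macrophages, neutrophils and lymphocytes were also gated, and lymphocytes served as cells that should lack most matrix transcripts. Of genes used in no gate, all 4 endothelial check markers (Esam, Robo4, Tek, Eng) and 4 of the 5 fibroblast ones (Fbln1, Mfap4, Mfap5, Pdpn) were highest in their class in all 4 libraries. The remaining fibroblast one, Cygb, was highest in fibroblasts in 1 library and in mural cells in the others. Of the mural check markers, Rasl12 was highest in mural cells in 4 libraries, Ebf2 and Cald1 in 3 and Mcam in 2. Of the 4 myoepithelial check markers only Krt15 was highest in its class in all 4 libraries, whereas Lgals7 led in 2 libraries, Sox10 in 1 and Cav1 in 0, so this class stands for epithelial cells with basal keratins and contractile genes. In tumor epithelial cells Spint2 and Elf5 led in 4 libraries, Krt19 in 3 and Wfdc2 in 2, with myoepithelial cells above in the others. In macrophages Lyz2 and Trem2 led in 4 libraries, Fcer1g in 1 and Tyrobp in 0, and in lymphocytes Ltb and Ikzf3 led in 4, Cd52 in 1 and Ptprc in 0, with neutrophils above in the others. Frmd8 itself was counted in tumor epithelial cells at 24.1, 23.9, 5.46 and 11.1 CPM, lower in both Cre+ libraries. In fibroblasts it was at 15.5, 18.8, 15.1 and 13.2 CPM, lower in both Cre+ libraries by a small margin. It was also lower in both Cre+ libraries in macrophages (25.2, 24.2, 19.3 and 13.6 CPM) and lymphocytes (60.4, 58.5, 33.9 and 31.2 CPM). The same held in myoepithelial cells (20.5, 25.8, 9.98 and 3.53 CPM), where these values rest on 8, 14, 1 and 13 UMIs. The genotypes overlapped in mural cells (37.4, 27.3, 31.1 and 32.4 CPM) and endothelial cells (30.2, 35.7, 30.1 and 31.2 CPM). They also overlapped in neutrophils (22.0, 15.8, 25.1 and 19.3 CPM), with 20, 5, 3 and 5 UMIs. The kit counts the 3' end while loxP sites flank internal exons, so transcripts without these exons can still be counted. CPM are UMIs per 1000000 UMIs of a class. Since the kit counts 1 transcript end per molecule, CPM are not divided by gene length.

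Collagen IV of vessels is a trimer of alpha 1 and alpha 2 chains, and their genes Col4a1 and Col4a2 lie head to head. The RefSeq promoter windows of this pair (250 bases before to 50 after the start, build GRCm38.p6) are shown because the levels of both genes moved together over the classes. The Col1a2 window is shown as that of a fibroblast-led fibrillar collagen. RefSeq windows matched 29 of the 44 genes, and Col1a1 was not among them. Capitals mark 3 motifs on either strand, of which the first is the CCAAT box, the second the GC box, with the letters GGGCGG, and the third the TATA box, with the letters TATAAA.
Col4a1, chr8:11312777-11313076, minus strand: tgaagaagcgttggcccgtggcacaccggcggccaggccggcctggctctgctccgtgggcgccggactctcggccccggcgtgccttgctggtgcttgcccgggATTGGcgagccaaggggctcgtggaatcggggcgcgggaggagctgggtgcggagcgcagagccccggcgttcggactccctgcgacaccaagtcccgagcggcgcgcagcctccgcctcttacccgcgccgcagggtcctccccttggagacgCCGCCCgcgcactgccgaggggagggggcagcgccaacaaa
Col4a2, chr8:11312555-11312854, plus strand: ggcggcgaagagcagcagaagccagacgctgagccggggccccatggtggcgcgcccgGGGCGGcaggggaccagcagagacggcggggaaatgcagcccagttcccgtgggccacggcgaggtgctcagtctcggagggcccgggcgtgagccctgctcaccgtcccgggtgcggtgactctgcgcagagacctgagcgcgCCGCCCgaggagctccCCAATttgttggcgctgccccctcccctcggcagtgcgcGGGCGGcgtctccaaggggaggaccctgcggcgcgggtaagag
Col1a2, chr6:4505368-4505667, plus strand: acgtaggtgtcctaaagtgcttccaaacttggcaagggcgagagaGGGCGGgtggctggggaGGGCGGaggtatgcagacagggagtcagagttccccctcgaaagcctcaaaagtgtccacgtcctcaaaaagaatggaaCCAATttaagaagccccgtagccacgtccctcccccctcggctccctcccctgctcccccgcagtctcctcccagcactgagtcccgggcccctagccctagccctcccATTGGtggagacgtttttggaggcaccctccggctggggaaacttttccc
The Col4a1 and Col4a2 windows share 78 bases on opposite strands (chr8:11312777-11312854), and their listed starts lie 21 bases apart. Their GC content was 74% and 73.7%, against 61% for Col1a2. CCAAT occurred 1 time in each window of the pair and 2 times in that of Col1a2, GGGCGG occurred 1, 3 and 2 times, and TATAAA in 0 of the 3. Over all 32851 RefSeq windows, 37.4% held CCAAT, 35.7% held GGGCGG and 13.6% held TATAAA. These matches are letters only.

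Fibroblasts had the highest share of matrix transcripts. The 44 genes made up 8.97 to 9.8% of fibroblast UMIs over the 4 libraries, 3.58 to 4.6% in mural cells, 1.81 to 2.51% in endothelial cells and 0.454 to 0.997% in myoepithelial cells. The shares were 0.0337 to 0.0982% in tumor epithelial cells, 0.0399 to 0.154% in macrophages, 0.0753 to 0.184% in neutrophils and 0.0194 to 0.0358% in lymphocytes. Because tumor cells outnumbered fibroblasts, the share of a gene's UMIs that a class held can differ from the order of the levels. For 27 of the 44 genes, fibroblasts held over 50% of the UMIs of all gated cells in every library. The share of all genes for which this holds was not counted. A bulk sample could not tell fewer cells from less RNA per cell, whereas CPM here are within a class.

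**Figure D1:**
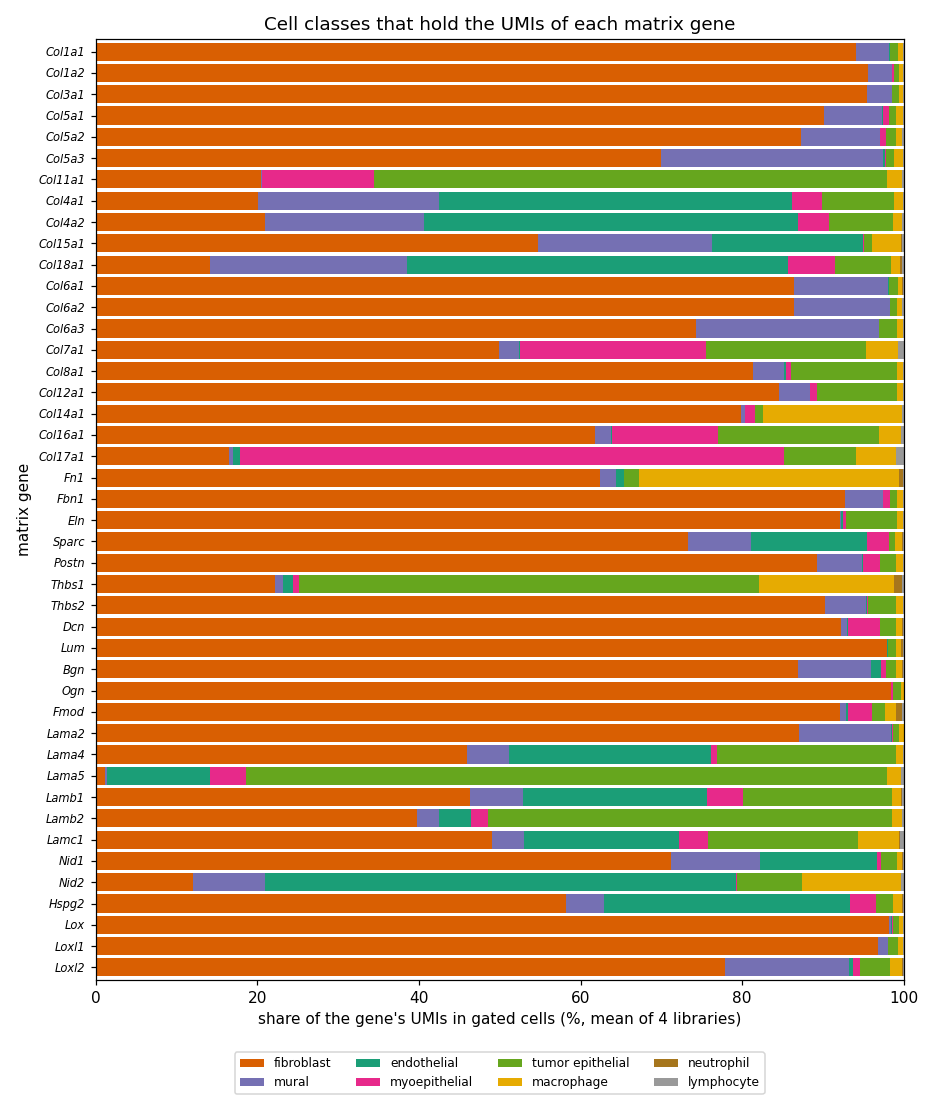
Share of each matrix gene's UMIs in gated cells (x axis, %, mean of 4 libraries) held by each of 8 cell classes (colors), with 1 bar per gene. Fibroblasts (orange) held over 50% of the UMIs of Col1a1, Col1a2 and Col3a1, while tumor epithelial cells (light green) held over 50% of those of Lama5, Thbs1 and Col11a1.

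By mean CPM, fibroblasts were the leading class for 27 of the 44 genes, endothelial cells for 7, mural cells for 6 and myoepithelial cells for 4. Among all 18989 genes with at least 20 UMIs, fibroblasts led 11.5%, endothelial cells 12.7%, mural cells 11.8% and myoepithelial cells 12.4%. For 29 of the 44 genes, the lowest library of the leading class lay above the highest library of the second class, a separation that 24.7% of all genes showed. The classes share libraries, so the 4 values of a class carry the depth and free RNA of those libraries.

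**Figure D2:**
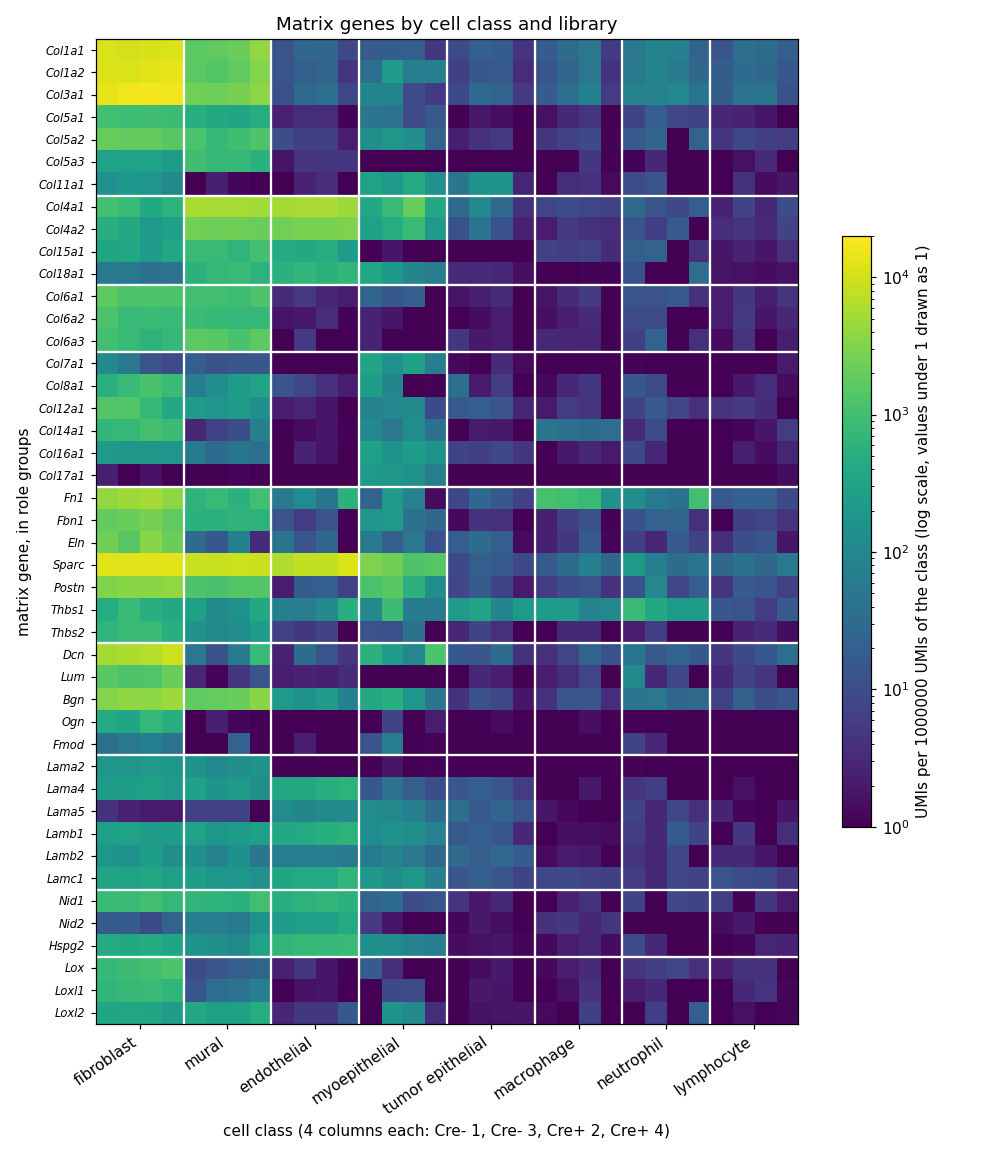
Level of each matrix gene (rows, in role groups separated by white lines) in each cell class and library (columns, 4 per class in the order Cre- 1, Cre- 3, Cre+ 2, Cre+ 4), in UMIs per 1000000 UMIs of the class on a log color scale. The proteoglycans (Fmod in 3 of 4 libraries) and the fibrillar collagens other than Col5a3 and Col11a1 are brightest in fibroblasts. Col5a3 is brightest in mural cells and Col11a1 in myoepithelial cells. Col4a1 and Col4a2 are brightest in mural and endothelial cells, and Col17a1 in myoepithelial cells. Values under 1 are drawn as 1.

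Fibrillar collagens were led by fibroblasts for Col1a1, Col1a2, Col3a1, Col5a1 and Col5a2. Col3a1, the chain of type III collagen, reached 14546, 16118, 16853 and 16701 CPM in fibroblasts and 2447, 2256, 2619.9 and 3639.8 CPM in mural cells. Col1a1, a chain of type I collagen, was counted at 11428, 10221, 10936 and 11535 CPM in fibroblasts, 1660.2, 1802, 2122 and 4027 CPM in mural cells and 8.9 to 28.5 CPM in endothelial cells. All fibroblast libraries lay above all mural ones, and the mural values above all endothelial ones. In lymphocytes Col1a1 stood at 13.8 to 37.4 CPM and in the free RNA of Cre+ replicate 4 at 167 CPM, so the 4.4 to 20.6 CPM of tumor epithelial cells were at the level of cells that should lack the gene. Type V collagen is known to control the width of fibrils. Col5a1 was at 906 to 1013 CPM in fibroblasts and 356 to 517 CPM in mural cells, and Col5a2 at 1510.3 to 2026 CPM and 772 to 1297 CPM. Col1a2, the partner of Col1a1, was at 11294 to 13653 CPM in fibroblasts and 1413 to 3125 CPM in mural cells. Col5a3, the third type V chain, ran the other way: mural cells held 968, 745, 766 and 568 CPM and fibroblasts 303, 305, 318 and 235 CPM, with no overlap.

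Col11a1, a chain of the type XI collagen found in cartilage and fiber cores, was split over unlike classes. Myoepithelial cells held 304, 221, 439 and 149 CPM, fibroblasts 149, 195, 172 and 115 CPM and tumor epithelial cells 48.2, 158, 154 and 2.83 CPM. Thus in 3 of 4 libraries the level in tumor epithelial cells was above the 0 to 4.29 CPM of lymphocytes, and in Cre+ replicate 4 it was within that range. Mural and endothelial cells stayed at or below 3.54 CPM. Tumor epithelial cells held 15.8 to 82.5% of the Col11a1 UMIs of gated cells, and fibroblasts 15.6 to 26.3%. Col11a1 was the only 1 of the 44 genes not called between fibroblasts and tumor epithelial cells (log2 fold change 1.01 ± 0.86 (SE), adjusted p = 0.335).

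Basement membrane collagen was highest in the vessel classes. Col4a1 was counted at 5621, 5565, 5392 and 4973 CPM in mural cells and 5268, 5581, 5710.4 and 4646 CPM in endothelial cells, and these classes overlapped. Fibroblasts held 1027, 799, 405 and 603 CPM, and myoepithelial cells 384, 777, 1976 and 401 CPM. Col4a2 was at 2421, 2735, 2764 and 2963 CPM in endothelial cells, all above the mural values of 2391, 2268, 2336 and 2161 CPM, and at 512, 409.9, 203 and 272 CPM in fibroblasts. The ratio of Col4a1 to Col4a2 UMIs was 1.95 to 2.22 in fibroblasts, 2.3 to 2.45 in mural cells and 1.57 to 2.18 in endothelial cells. It was 1.35 to 2.51 in myoepithelial and 1.71 to 2.57 in tumor epithelial cells. Macrophages had ratios of 1.825 to 3.52, and 1 lymphocyte sum had 1.30. The median was 2.04 over the 25 class sums with at least 30 UMIs of each gene. The capture of each transcript by the kit enters such a ratio, so only its spread over classes compares like with like. Col15a1 and Col18a1, whose ends can be cut to fragments that act on vessels, are collagens of the membrane border. Col15a1 was highest in mural cells (645 to 1090.4 CPM), ahead of endothelial cells (232 to 460.3 CPM) and fibroblasts (242 to 378 CPM), which overlapped. Col18a1 was at 574 to 787 CPM in mural and 555 to 699 CPM in endothelial cells, which overlapped, against 38.4 to 62.2 CPM in fibroblasts.

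Collagen VI, a microfibril collagen of the pericellular space, was shared by fibroblasts and mural cells with different weights per chain. Col6a1 was at 1707, 1249.9, 1223 and 1219 CPM in fibroblasts and 1008, 1012, 921 and 1251 CPM in mural cells, and Col6a2 at 814 to 1235 CPM and 726 to 886 CPM, both overlapping. Col6a3 ran the other way, with 1658, 1592, 1158 and 1698 CPM in mural cells, all above the 619 to 991 CPM of fibroblasts. Endothelial cells held at most 5.24 CPM of any of the 3 chains.

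Of the collagens that lie on fibrils, anchor membranes, are short-chain or span the cell membrane, Col8a1, Col12a1 and Col14a1 were fibroblast-led and Col7a1, Col16a1 and Col17a1 myoepithelial-led. Col17a1, a transmembrane collagen of hemidesmosomes, was counted at 207, 188, 159.7 and 64.1 CPM in myoepithelial cells and at most 2.43 CPM in any library of the other gated classes. The 474 epithelial cells with basal but no contractile markers were in none of these classes, and their Col17a1 level is not given. Col7a1, the anchoring fibril collagen under squamous and basal epithelium, was at 330.1, 149, 289 and 65.5 CPM in myoepithelial cells and 111, 52.9, 13.2 and 9.89 CPM in fibroblasts, which overlapped. Col16a1 overlapped between myoepithelial cells (162 to 292 CPM) and fibroblasts (174 to 206 CPM). Col14a1, a fibril-associated collagen, was at 716, 729.6, 1069.6 and 893 CPM in fibroblasts. Macrophages held 47.6, 38.5, 33.4 and 35.5 CPM of it, above every lymphocyte sum (0.444 to 5.77 CPM). Col12a1 was at 399 to 1388 CPM in fibroblasts and 146 to 243 CPM in mural cells, and Col8a1 at 529 to 1167 CPM and 69.1 to 328 CPM.

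**Figure D3:**
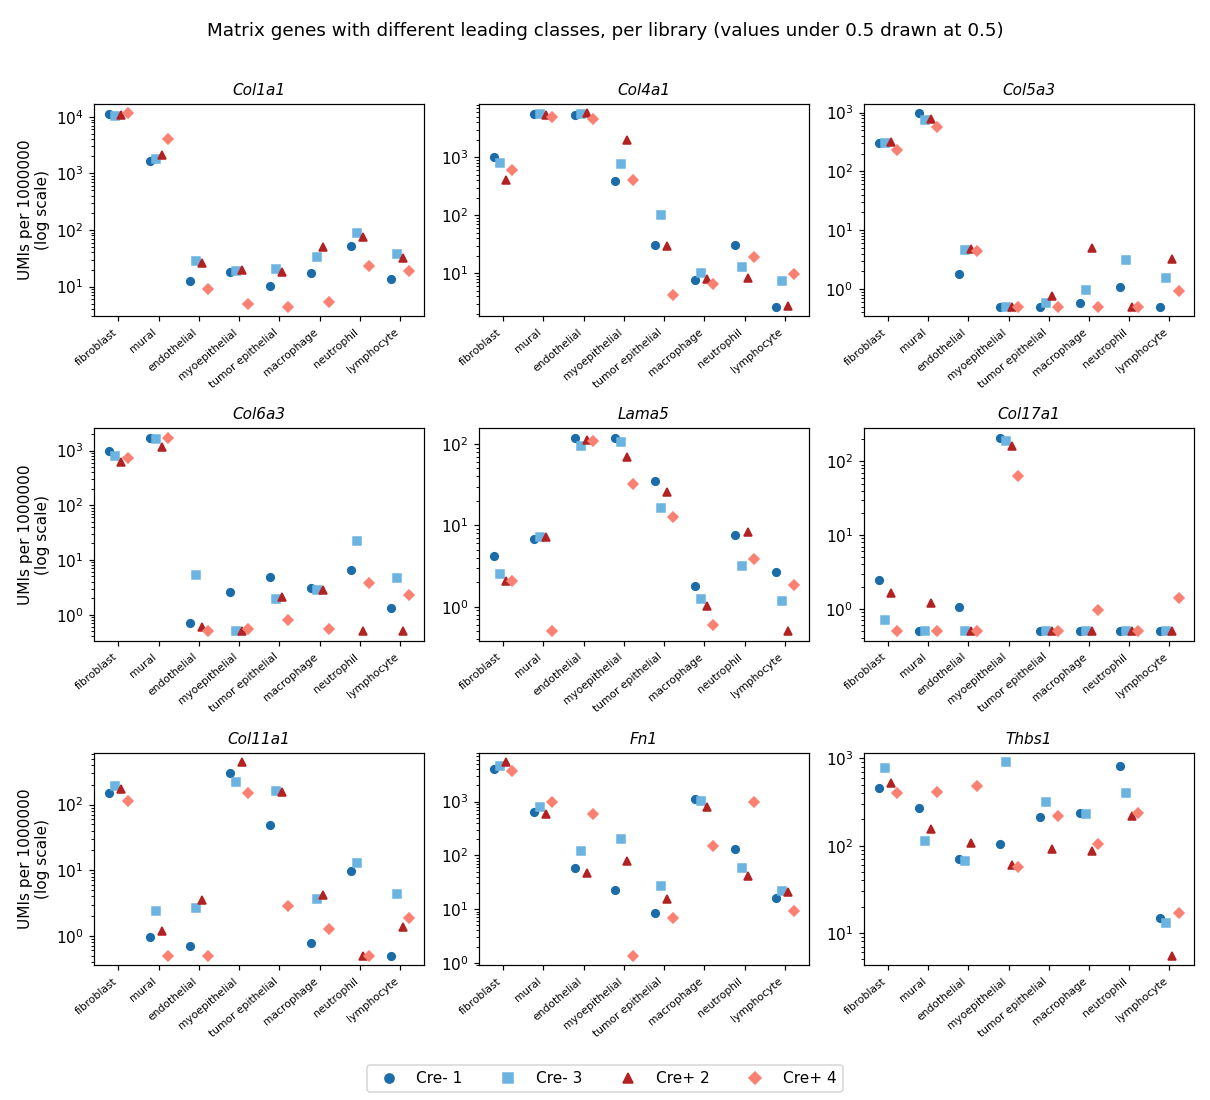
Level of 9 matrix genes in each cell class (x axis) in UMIs per 1000000 UMIs of the class (y axis, log scale, values under 0.5 drawn at 0.5), with 1 point per library. Col1a1 falls from fibroblasts to mural cells, Col4a1 is alike in mural and endothelial cells, Col17a1 is highest in myoepithelial cells, and Thbs1 is higher in every other class than in lymphocytes.

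All 7 glycoproteins and elastic fiber proteins had their highest mean in fibroblasts. Sparc, a collagen-binding glycoprotein, was abundant in the whole stroma, with 12300.3, 13032, 12671 and 13389 CPM in fibroblasts, 8731, 8776, 9235 and 9065 CPM in mural cells and 6266, 8183, 8153 and 11484 CPM in endothelial cells. Myoepithelial cells held 1288 to 2894 CPM and tumor epithelial cells 8.98 to 20.2 CPM of it. Fbn1, the microfibril protein fibrillin, was at 1786 to 2664 CPM in fibroblasts and 532 to 615 CPM in mural cells. Postn, the periostin gene, was at 3094 to 4080.3 CPM and 1149 to 1431 CPM, and at 1205, 1596, 589 and 128 CPM in myoepithelial cells. Eln, the elastin gene, was at 1523 to 3390.0 CPM in fibroblasts and at most 79 CPM in mural cells. Thbs2, a thrombospondin, was at 501 to 834 CPM in fibroblasts and 114 to 238 CPM in mural cells.

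Fn1 and Thbs1 reached beyond the stroma. Fn1, fibronectin, was at 4017, 4630.1, 5362 and 3737 CPM in fibroblasts and at 1116, 1013, 808 and 149 CPM in macrophages, which put macrophages above endothelial cells in 3 libraries and below them in Cre+ replicate 4 (endothelial values 59, 122, 46.6 and 581 CPM). Macrophages held 18.5 to 38.6% of all Fn1 UMIs. Thbs1, thrombospondin 1, which activates latent TGF-beta and limits vessel growth, was above lymphocytes in all 7 other classes. It was at 458, 781, 521 and 406 CPM in fibroblasts, 824, 406, 218 and 235 CPM in neutrophils, 211, 320.4, 90.9 and 221 CPM in tumor epithelial cells and 235, 229, 87.2 and 105 CPM in macrophages. The fibroblast and neutrophil values overlapped, and fibroblasts led in only 1 of 4 libraries. In lymphocytes it stood at 5.5 to 17.1 CPM. Tumor epithelial cells held 33.8 to 69.9% of the gated Thbs1 UMIs.

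The 5 small leucine-rich proteoglycans, which bind collagen fibrils, were fibroblast-led. Dcn, decorin, was at 5284, 5879, 6698 and 9359 CPM in fibroblasts, 49.9, 11.9, 61.1 and 829 CPM in mural cells and 560.4, 218, 99.8 and 1197 CPM in myoepithelial cells. Cre+ replicate 4 thus stood above the other libraries in mural and myoepithelial cells. The 5 fibroblast check markers summed to 269, 113, 79.9 and 86.4 CPM in myoepithelial cells and 860.3, 815, 940.0 and 584 CPM in mural cells. In the 176 myoepithelial cells of that library Col1a1 stood at 4.89 CPM and Lum at 0.543 CPM, against 1197 CPM of Dcn. Free RNA of that library held Dcn at 151 CPM, and its part in these values was not tested. Lum (lumican) was at 1292 to 2051 CPM in fibroblasts and at most 13.4 CPM in mural cells, Ogn at 345 to 729 CPM and at most 2.38 CPM. Bgn (biglycan) was shared more widely, with 3183 to 4644 CPM in fibroblasts, 1795 to 3409.6 CPM in mural and 77.9 to 225 CPM in endothelial cells. Fmod was low, with 38.2 to 73.2 CPM in fibroblasts.

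Laminins are trimers of an alpha, a beta and a gamma chain, and the alpha chain differed by class. Lama2 was found in fibroblasts and mural cells, with 176, 174, 205 and 197 CPM in fibroblasts, 155, 101, 132 and 171 CPM in mural cells and at most 0.656 CPM in endothelial cells. Lama4 was highest in endothelial cells at 378, 413, 511 and 612 CPM, above fibroblasts (213 to 282 CPM) and mural cells (134 to 289 CPM). In fibroblasts all Lama4 values stood above all Lama2 values, and in mural cells the 2 ranges overlapped. Lama5 was a chain of endothelial and epithelial cells, with 119, 93.7, 113 and 108 CPM in endothelial, 118, 105, 69.9 and 32.3 CPM in myoepithelial and 35.4, 16.3, 25.4 and 12.6 CPM in tumor epithelial cells, against 2.05 to 4.17 CPM in fibroblasts. Endothelial and myoepithelial values overlapped. The partner chains Lamb1 and Lamc1 were endothelial-led at 392 to 612 CPM and 349 to 676 CPM, and were also present in fibroblasts (236 to 305 CPM and 279.9 to 376 CPM), where only Lamc1 overlapped. Lamb2 was highest in fibroblasts (136 to 244 CPM), overlapping mural cells (49.2 to 145 CPM). In every tumor epithelial library, Thbs1, Lama4, Lama5, Lamb2 and Col16a1 stood above all lymphocyte libraries. How many of all genes do so was not counted. Their lowest tumor epithelial values were 90.9, 5.67, 12.6, 17.5 and 4.86 CPM. Free RNA of Cre+ replicate 4 held them at 133, 11.6, 12.4, 14.7 and 11.8 CPM, and its part was not tested. Hspg2, perlecan, was at 671 to 805 CPM in endothelial cells and 346 to 443 CPM in fibroblasts. The nidogens, which link laminin to collagen IV, divided: Nid1 was at 735 to 1008 CPM in fibroblasts, 560.4 to 997 CPM in mural and 498 to 688 CPM in endothelial cells, whereas Nid2 was at 226 to 434 CPM in endothelial and 9.28 to 23.1 CPM in fibroblast sums.

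The crosslinking enzymes Lox and Loxl1 had 97.9 to 98.6% and 94.6 to 98% of their gated UMIs in fibroblasts. Lox was at 746, 881, 1075 and 1191 CPM there and 9.6 to 24.6 CPM in mural cells, and Loxl1 at 672 to 829.6 CPM and 14.4 to 69.3 CPM. Loxl2 was at 278 to 460.3 CPM in mural cells and 253 to 386 CPM in fibroblasts, which overlapped. Myoepithelial cells of Cre- replicate 3 and Cre+ replicate 2 held 166 and 109.8 CPM of Loxl2, those of Cre- replicate 1 held 0 UMIs and those of Cre+ replicate 4 3.53 CPM.

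Summed counts were then compared between classes over the 4 libraries with edgeR's quasi-likelihood test, with p adjusted by Benjamini-Hochberg across every tested gene and called under 0.05. Fold changes are log2 and the first class is compared with the second. Between fibroblasts and tumor epithelial cells, 42 of the 44 genes were called higher in fibroblasts and 1 lower, where 29.6% and 30.4% of all 15300 genes tested were called higher and lower. The median log2 fold change was 8.53 over the 44 genes and -0.08 over all genes. The largest were Col1a2 (10.45 ± 0.61 (SE), adjusted p = 2.4e-06), Lox (10.10 ± 0.71 (SE), adjusted p = 6.6e-06) and Col3a1 (10.10 ± 0.66 (SE), adjusted p = 4.6e-06). Lama5, a chain of epithelial basement membrane, was the gene called lower (-2.87 ± 0.37 (SE), adjusted p = 0.00022). For most of the 44 genes, not every tumor epithelial library stood above all lymphocyte libraries. The part of free RNA in these folds was not tested. Col17a1 (3.19 ± 0.57 (SE), adjusted p = 0.0014) was not called with 1 more marker per gate (1.23, adjusted p = 0.226). Of genes outside the 44, 17 of 18 collagen modifying and folding genes were called higher in fibroblasts and 0 lower, among them Serpinh1, the collagen chaperone (6.60 ± 0.78 (SE), adjusted p = 0.00013), and Fkbp10 (8.37 ± 0.36 (SE), adjusted p = 5.8e-07). Of 19 matrix receptors, 11 were higher in fibroblasts and 4 lower. The 4 were Itga3, Itga6 and Itgb4, integrin chains that bind laminin, and the collagen receptor Ddr1, with Itga6 at -4.28 ± 0.54 (SE), adjusted p = 0.00019.

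Against mural cells, fibroblasts were called higher for 30 of 42 tested genes and lower for 7, where 21.9% of all 9925 genes were called higher and 19.0% lower. The median log2 fold change was 1.34 over the 42 and 0.01 over all genes. The largest rises were Ogn (8.94 ± 0.45 (SE), adjusted p = 3.3e-07), Lum (8.30 ± 0.45 (SE), adjusted p = 4.6e-07) and Col11a1 (7.28 ± 0.36 (SE), adjusted p = 3.3e-07). The mural levels of Ogn and Col11a1 given above amount to few UMIs, so the size of these folds is uncertain. The 7 genes lower in fibroblasts were Col18a1 (-3.61 ± 0.18 (SE), adjusted p = 3.3e-07), Col4a1 (-2.77 ± 0.25 (SE), adjusted p = 1.3e-05), Col4a2 (-2.55), Nid2 (-2.30), Col5a3 (-1.22), Col15a1 (-1.20) and Col6a3 (-0.80). Col6a1 and Col6a2, at 0.52 and 0.43, were called higher in fibroblasts, but Col6a2 lost its call without any 1 of the 4 libraries, and Col6a1 without any but Cre+ replicate 4. Bgn, Thbs1, Lama2 and Lamb2 lost theirs without Cre+ replicate 2 or Cre- replicate 3, with Bgn at 0.85, adjusted p = 0.0603 and 0.84, adjusted p = 0.0649. Nid1 was called only without Cre+ replicate 4 (0.73, adjusted p = 0.00321) and Lama4 without Cre- replicate 1 (0.74, adjusted p = 0.0139). With the library as a block, Col7a1 (1.46 ± 0.49 (SE), adjusted p = 0.0488) and Lama4 (0.52 ± 0.17 (SE), adjusted p = 0.0452) were called as well. Of collagen modifying genes, 10 of 17 tested were higher in fibroblasts and 0 lower. Of 15 matrix receptors tested, 6 were higher and 4 lower, among the latter Itga7 (-6.13 ± 0.43 (SE), adjusted p = 2.5e-06) and Itga1 (-4.49 ± 0.31 (SE), adjusted p = 2.4e-06).

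Between fibroblasts and endothelial cells, 33 of 43 tested genes were higher in fibroblasts and 8 lower, against 31.7% and 26.5% of all 11093 genes. Ogn (10.57 ± 0.43 (SE), adjusted p = 1.8e-08), Col1a2 (9.83 ± 0.36 (SE), adjusted p = 1e-08) and Col14a1 (9.82 ± 0.31 (SE), adjusted p = 5.2e-09) rose most. Endothelial sums held only 38, 60, 39 and 4 UMIs of Col1a2, so the size of such folds is uncertain. The 8 lower genes, all known as basement membrane components, were Lama5 (-5.13 ± 0.20 (SE), adjusted p = 1.3e-08), Nid2 (-3.98 ± 0.31 (SE), adjusted p = 1.7e-06), Col18a1 (-3.45 ± 0.18 (SE), adjusted p = 7.9e-08), Col4a2 (-2.76), Col4a1 (-2.70), Lama4 (-0.74), Hspg2 (-0.64) and Lamb1 (-0.63). Col15a1 (-0.00 ± 0.21 (SE), adjusted p = 1) and Lamc1 (-0.30 ± 0.21 (SE), adjusted p = 0.239) did not pass. Thbs1 (1.80 ± 0.61 (SE), adjusted p = 0.0272) passed, but not without Cre- replicate 1, Cre+ replicate 2 or Cre- replicate 3, where its adjusted p were 0.0811, 0.106 and 0.146. Of 18 collagen modifying genes, 16 were higher in fibroblasts and 1 lower, and of 17 matrix receptors 7 were higher and 9 lower. The median was 6.89 over the 43 and 0.05 over all genes.

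The pair of vessel classes also differed. Mural cells were higher than endothelial cells for 24 of 37 tested genes and lower for 6, with 20.7% and 20.5% of all 8590 genes called. The largest rises were Col6a3 (9.46 ± 0.50 (SE), adjusted p = 6.9e-08), Col6a2 (8.49 ± 0.23 (SE), adjusted p = 1.8e-09) and Lama2 (8.37 ± 0.38 (SE), adjusted p = 2.8e-08). Endothelial sums held only 5, 6, 6 and 1 UMIs of Col6a2, and the endothelial Lama2 level given above was also near 0. The size of these folds is thus uncertain. The 6 lower genes were Lama5 (-4.31 ± 0.36 (SE), adjusted p = 2.4e-06), Hspg2 (-2.01 ± 0.28 (SE), adjusted p = 0.00011), Nid2 (-1.70 ± 0.33 (SE), adjusted p = 0.00162), Lama4 (-1.24), Lamc1 (-1.20) and Lamb1 (-0.92). Col4a1 (0.06 ± 0.10 (SE), adjusted p = 0.68) and Sparc (0.10 ± 0.17 (SE), adjusted p = 0.674) did not pass. The median was 4.59 over the 37 and 0.02 over all genes. Of 17 collagen modifying genes, 13 were higher in mural cells and 2 lower, and of 15 matrix receptors 7 were higher and 7 lower. Fn1 and Lamb2 were called, but not without Cre- replicate 1, Cre- replicate 3 or Cre+ replicate 2, where Fn1 stood at 1.72, adjusted p = 0.116, 1.73, adjusted p = 0.173 and 1.72, adjusted p = 0.102. Dcn (4.09 ± 1.19 (SE), adjusted p = 0.0167) was not called without Cre+ replicate 4 (1.31, adjusted p = 0.135), and Thbs1 was called only then (1.19, adjusted p = 0.00446).

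Myoepithelial cells were higher than tumor epithelial cells for 21 of 42 tested genes and lower for 0, where 6.15% and 6.29% of all 14028 genes were called. The median log2 fold change was 2.69 over the 42 and -0.13 over all genes. Col17a1 (9.73 ± 0.51 (SE), adjusted p = 7.6e-06), Sparc (7.12 ± 0.46 (SE), adjusted p = 1.7e-05) and Col7a1 (6.81 ± 0.67 (SE), adjusted p = 0.00019) rose most. Lama5 (1.75 ± 0.42 (SE), adjusted p = 0.0231) and Col4a1 (4.23 ± 0.86 (SE), adjusted p = 0.01) were also called, but Lama5 stood at 1.79, adjusted p = 0.0527 without Cre- replicate 1, at 1.89, adjusted p = 0.0858 without Cre+ replicate 2 and at 1.43, adjusted p = 0.155 without Cre- replicate 3. Col4a1 lost its call without Cre+ replicate 2 (3.52, adjusted p = 0.079), Loxl2 without Cre+ replicate 2 or Cre- replicate 3, and Nid1 without Cre- replicate 3 (2.56, adjusted p = 0.105). Without Cre+ replicate 4, Col6a1, Col12a1, Fn1 and Lamb2 were called as well. Outside the 44, the laminin chains Lama3 (8.34 ± 0.44 (SE), adjusted p = 7.6e-06) and Lamb3 (3.46 ± 0.32 (SE), adjusted p = 0.00014) were also higher, of which Lama3 is the alpha chain of the hemidesmosome laminin. Of 17 collagen modifying genes and 17 matrix receptors, 9 each were higher in myoepithelial cells and 0 lower. With the library as a block, 27 of the 42 genes were called, adding Col8a1, Col11a1, Col12a1, Ogn, Lama2 and Lamb2, with Col12a1 at 2.30 ± 0.27 (SE), adjusted p = 5.2e-05. Of all 14028 genes, the block fit called 2260, against 1746 in the main fit. Upper limits on genes and UMIs per cell left 1 myoepithelial sum, so the calls of that fit are not given. The limits are a reading of the study's filter, whose wording can also be read as the reverse. Myoepithelial sums held 10 to 176 cells and the 10 fibroblast gate markers at 627, 437, 399 and 167 CPM, against 4.52 to 32.8 CPM in tumor epithelial cells and 5310.4 to 6698 CPM in fibroblasts. Their part in the result was not tested.

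Macrophages, compared with lymphocytes, were called higher for 5 of 37 tested genes and lower for 0. Of all 12024 genes 30.0% were called higher and 26.4% lower, so the share among the matrix genes was below the background. The 5 were Fn1 (5.67 ± 0.60 (SE), adjusted p = 2.1e-05), Col14a1 (3.96 ± 0.44 (SE), adjusted p = 3.3e-05), Thbs1 (3.81 ± 0.41 (SE), adjusted p = 2.7e-05), Nid2 (2.09 ± 0.40 (SE), adjusted p = 0.0013) and Col15a1 (1.21 ± 0.34 (SE), adjusted p = 0.012). Col15a1 lost its call without Cre- replicate 1, Cre- replicate 3 or Cre+ replicate 2 (1.00, adjusted p = 0.0833, 1.21, adjusted p = 0.0586 and 1.01, adjusted p = 0.0726). The median was 0.13 over the 37 and 0.01 over all genes. Of 15 collagen modifying genes, 9 were higher in macrophages and 1 lower, and of 15 matrix receptors 7 were higher and 4 lower. The fibroblast check markers summed to 122, 72.1, 30.7 and 32 CPM in macrophages, and Col1a1 stood at 5.31 to 50.6 CPM. The part of fibroblast RNA in these results was not tested.

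Genotypes were compared within each class with 2 libraries against 2, and a positive fold change means higher in Cre+. In fibroblasts, 0 of 12546 genes were called in either direction (0%), 838 genes had an unadjusted p under 0.05 and DESeq2 called 95. In mural cells, 0 of 8216 genes were called in either direction (0%), 326 genes had an unadjusted p under 0.05 and DESeq2 called 2. In endothelial cells, 0 of 10077 genes were called in either direction (0%), 423 genes had an unadjusted p under 0.05 and DESeq2 called 11. In myoepithelial cells, 0 of 5980 genes were called in either direction (0%), 571 genes had an unadjusted p under 0.05 and DESeq2 called 15. In tumor epithelial cells, 0 of 15983 genes were called in either direction (0%), 375 genes had an unadjusted p under 0.05 and DESeq2 called 65. In macrophages, 0 of 13165 genes were called in either direction (0%), 232 genes had an unadjusted p under 0.05 and DESeq2 called 11. Of the 44 genes, 44 were tested in fibroblasts, 37 in mural, 28 in endothelial, 29 in myoepithelial and 42 in tumor epithelial cells and 43 in macrophages. None of those tested was thus called by edgeR in any of the 6 classes. Cre+ replicate 4 was processed with another version of Cell Ranger than the other 3 libraries, so a difference between the 2 Cre+ libraries cannot be told apart from that version.

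In fibroblasts, 9 of the 44 genes had an unadjusted p under 0.05. Col7a1 had the lowest, with 111, 52.9, 13.2 and 9.89 CPM (log2 fold change -2.70 ± 0.39 (SE), unadjusted p = 0.00041, adjusted p = 0.237). Col4a2 followed at 512, 409.9, 203 and 272 CPM (-0.92 ± 0.19 (SE), unadjusted p = 0.0032, adjusted p = 0.344). Both Cre+ libraries lay below both Cre- libraries for these genes. The same was seen for Col12a1, a fibril-associated collagen (1388, 1355, 748 and 399 CPM, -1.21 ± 0.30 (SE), unadjusted p = 0.00616, adjusted p = 0.421), and Col4a1 (1027, 799, 405 and 603 CPM, -0.82 ± 0.24 (SE), unadjusted p = 0.0131, adjusted p = 0.535). DESeq2 called 3 of these, Col7a1 (-2.75, adjusted p = 1.1e-08), Col12a1 (-1.22, adjusted p = 0.00423) and Col4a2 (-0.93, adjusted p = 0.00629). Among genes higher in both Cre+ libraries, Col8a1, a short-chain collagen, was at 529, 785, 1167 and 853 CPM (0.66 ± 0.25 (SE), unadjusted p = 0.0387, adjusted p = 0.695), Ogn at 428, 345, 729 and 487 CPM (0.70 ± 0.23 (SE), unadjusted p = 0.0216, adjusted p = 0.594) and Lox at 746, 881, 1075 and 1191 CPM (0.52 ± 0.16 (SE), unadjusted p = 0.0186, adjusted p = 0.571). The median over the 44 genes was 0.02 and over all genes 0.00. The most abundant fibrillar collagens did not pass the unadjusted threshold, with Col1a1 at 0.09 ± 0.21 (SE), unadjusted p = 0.672, adjusted p = 0.991 and Col3a1 at 0.17 ± 0.22 (SE), unadjusted p = 0.478, adjusted p = 0.961. Without Cre+ replicate 2, which leaves 1 Cre+ library, Col12a1 stood at -1.74. Without Cre- replicate 3, which leaves 1 Cre- library, Col7a1 stood at -3.15. Over all alternative settings, Col12a1 ranged from -1.74 to -0.83 and Col7a1 from -3.15 to -2.10.

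**Figure D4:**
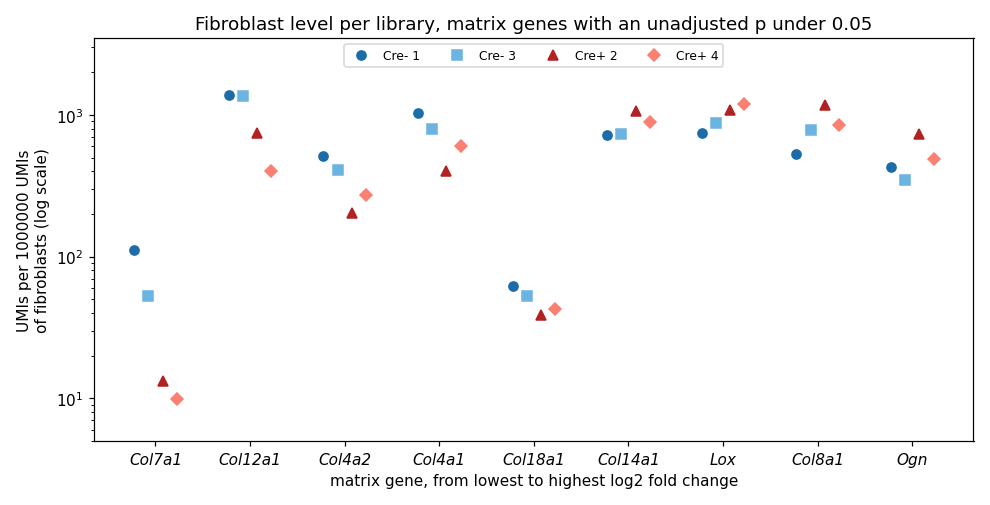
Level in fibroblasts (y axis, UMIs per 1000000 UMIs of fibroblasts, log scale) of the 9 matrix genes with an unadjusted p under 0.05 between genotypes (x axis), with 1 point per library (blue Cre-, red Cre+). Col7a1 stands at 111 and 52.9 in Cre- and at 13.2 and 9.89 in Cre+, and none of the 9 passed the adjusted threshold.

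In mural cells the lowest unadjusted p were those of Col8a1 (69.1, 126, 232 and 328 CPM, 1.56 ± 0.35 (SE), unadjusted p = 0.00208, adjusted p = 0.998) and Dcn (49.9, 11.9, 61.1 and 829 CPM, 3.86 ± 1.09 (SE), unadjusted p = 0.00711, adjusted p = 0.998). The Dcn value came from Cre+ replicate 4, where the 10 fibroblast gate markers were also highest (157, 216, 251 and 449 CPM). The 5 fibroblast check markers were instead lowest in that library (584 CPM, against up to 940 CPM). The part of fibroblast RNA was not tested. Col1a1 in mural cells was at 1660.2, 1802, 2122 and 4027 CPM (0.86 ± 0.32 (SE), unadjusted p = 0.028, adjusted p = 0.998). Without Cre+ replicate 2, which leaves Cre+ replicate 4 as the lone Cre+ library, Dcn stood at 4.75 and Col14a1 at 3.98. Without Cre+ replicate 4, Eln stood at 1.63 and Fmod at 5.09. Over all alternative settings, Dcn ranged from 0.92 to 5.58 and Eln from -2.80 to 1.63. Where tested, Col14a1 ranged from 2.60 to 3.98 and Fmod from 3.45 to 6.34. In endothelial cells the lowest unadjusted p were those of Thbs1 (71.1, 67.5, 106 and 489 CPM, 2.12 ± 0.63 (SE), unadjusted p = 0.0121, adjusted p = 0.991) and Col8a1 (13.9, 7.87, 4.13 and 2.23 CPM, -1.65 ± 0.54 (SE), unadjusted p = 0.0185, adjusted p = 0.991). Lymphocytes held 0.889 to 3.67 CPM of Col8a1, which overlaps its endothelial values. Without Cre+ replicate 2, Fn1 stood at 2.74 and Thbs1 at 2.88 in endothelial cells. Over all alternative settings, Fn1 ranged from -0.98 to 2.74 and Thbs1 from 0.60 to 2.88 there. The endothelial cells of Cre+ replicate 4 were shallower, with a median of 4846 UMIs against 14106 in Cre- replicate 3.

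Myoepithelial cells had 13 of 29 tested genes with an unadjusted p under 0.05, all lower in Cre+. The lowest were Col3a1 (94.7, 88.5, 9.98 and 5.43 CPM, -3.87 ± 0.44 (SE), unadjusted p = 3.8e-05, adjusted p = 0.103) and Col8a1 (258, 90.4, 0 and 1.09 CPM, -7.12 ± 0.86 (SE), unadjusted p = 5.2e-05, adjusted p = 0.103). Col8a1 had 0 UMIs and Col3a1 had 1 UMI in Cre+ replicate 2, whose sum of 10 cells and 100185 UMIs was the smallest. DESeq2 called Col3a1 (-3.84, adjusted p = 0.0194), Col8a1 (-7.11, adjusted p = 8.2e-08) and Fbn1 (-2.63, adjusted p = 0.0327). The median was -1.12 over the 29 and -0.01 over all genes. The fibroblast gate markers given above were lower in both Cre+ libraries than in both Cre- libraries, and their part was not tested. Over the alternative settings, Col3a1 ranged from -4.53 to -3.24 and Col8a1 from -8.90 to -6.21, whereas Dcn ranged from -2.05 to 1.81.

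In tumor epithelial cells, 0 of 42 tested genes had an unadjusted p under 0.05. The lowest were Postn (8.09, 17.8, 7.42 and 2.03 CPM, -1.43 ± 0.71 (SE), unadjusted p = 0.105, adjusted p = 1) and Col4a2 (12, 43.4, 12.3 and 2.46 CPM, -1.90 ± 0.95 (SE), unadjusted p = 0.106, adjusted p = 1). Col11a1, the collagen with the widest range there, differed between the 2 Cre+ libraries by more than between genotypes (-0.42 ± 1.61 (SE), unadjusted p = 0.806, adjusted p = 1). In macrophages, Thbs1 (235, 229, 87.2 and 105 CPM, -1.16 ± 0.22 (SE), unadjusted p = 0.00346, adjusted p = 1) and Dcn (3.86, 7.83, 24.4 and 12.2 CPM, 1.69 ± 0.46 (SE), unadjusted p = 0.0144, adjusted p = 1) had the lowest unadjusted p, and DESeq2 called Thbs1 (-1.16, adjusted p = 0.0494). Lymphocytes, which should lack Dcn, held it at 4.44 to 36.0 CPM, a range that overlaps the macrophage values. Fn1 in macrophages was low in 1 Cre+ library only (-1.10 ± 0.72 (SE), unadjusted p = 0.186, adjusted p = 1). Without Cre+ replicate 2, Fn1 stood at -2.68 in macrophages. Without Cre+ replicate 4, Thbs1 stood at -1.40 there. Over all alternative settings, Fn1 ranged from -2.68 to -0.38 and Thbs1 from -1.40 to -0.98 in macrophages.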

How the data were processed

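Single cells from mammary tumors of 2 Cre- and 2 Cre+ samples had been sequenced, 1 library each. The deposited matrices hold whole UMI counts as Cell Ranger, run by the authors, had written them, without normalization. Headers name version 6.1.2 for replicates 1, 2 and 3 and version 4 for replicate 4. Replicates 1, 2 and 3 hold only barcodes with at least 500 UMIs, and replicate 4 holds all 2582424 barcodes. The genome build is not given in the files, and the processing notes of the submitters name hg38, although all gene identifiers are mouse Ensembl ones. Coordinates therefore come only from RefSeq windows on GRCm38.p6.

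Barcodes with at least 1000 UMIs and at most 20% mitochondrial UMIs were kept. A class needed at least 4 of 10 markers (3 for lymphocytes, 3 of 5 for neutrophils) and 10 marker UMIs per 10000 UMIs. Myoepithelial cells needed 2 of 5 basal and 2 of 6 contractile markers, each list with 5 UMIs per 10000. Tumor epithelial cells passed the epithelial gate and neither of these lists. Epithelial cells that passed only the basal list (474 cells) or only the contractile list (36 cells) entered no class. Barcodes that passed more than 1 gate (155 to 421 per library) were left out, and no doublet caller was run. The numbers in the gates were set after marker counts, not member counts, had been seen. The 44 genes and all lists were chosen with earlier results of these data known.

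Counts were summed per library and class (at least 10 cells) and tested with edgeR 4.0.16 (glmQLFit, glmQLFTest, TMM, filterByExpr), and p were adjusted by the Benjamini-Hochberg method across every gene in the fit. Libraries were the replicates. SE is the absolute log2 fold change over the square root of F. DESeq2 1.42.0 and the settings of the closing section were alternatives, and the steps were tested on simulated data. Class sums of 1 library come from 1 tumor sample, which pairs them. The correlation of their deviations from class means was -0.06 to 0.46 and over 0.1 for 16 of 24 pairs. Within each comparison the genes named were the up to 3 called with the largest fold change per direction and those called against most, or the 2 with the lowest unadjusted p where none was called. Others were named after their values were seen. The list of other laminin chains is not reported here in full. Depth of the gated class sums ranged from 100185 to 79271874 UMIs, where 1 UMI is worth 1000000 divided by that depth in CPM.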

Additional observations from a re-analysis of the deposited data

Results flagged for a closer look

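For 4 of the 44 genes, the ratio of 2 classes had 1 direction in both Cre- libraries and the opposite in both Cre+ ones. Each gene was screened in every class comparison where both classes held enough of its UMIs. How many of all genes show such a switch was not counted. These differences were not tested. Col7a1 in fibroblasts against mural cells had log2 ratios of 2.46, 2.16, -0.12 and -0.55 in the order Cre- 1, Cre- 3, Cre+ 2 and Cre+ 4, a difference of -2.64 between the genotype means. Col3a1 in myoepithelial against tumor epithelial cells had ratios of 3.35, 1.61, -1.24 and -0.001, a difference of -3.10. Its myoepithelial value in Cre+ replicate 2 was 1 UMI, and in Cre+ replicate 4 the levels were nearly equal. In macrophages against lymphocytes, Thbs2 had ratios of 0.17, 0.15, -0.11 and -1.60 (difference -1.01) and Lamb2 of -1.27, -0.62, 0.06 and 0.17 (difference 1.06). Thbs2 stood at 0.458 to 3.03 CPM in macrophages and 0.889 to 3.21 CPM in lymphocytes, and Lamb2 at 0.778 to 2.03 CPM and 0.692 to 3.12 CPM, which are levels of cells that should lack these genes.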

How the results depend on the processing

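Fibroblasts led 27 of the 44 genes at a minimum of 2000 UMIs, with 1 more marker per gate and with the order-of-magnitude cell call of Cre+ replicate 4, and 26 under the upper limits on genes and UMIs, a setting added after seeing the data. Over the alternatives of the class comparisons, 2839 of 2926 refitted values of single genes kept their direction where called and their side of the threshold, 64 lost the call, 23 gained it and 0 reversed. The number of the 44 genes called stayed within 1.5 times the main number in all class comparisons and settings but 1. The exception was myoepithelial against tumor epithelial cells under the upper limits, which left 1 myoepithelial sum. With the library as replicate block, 27 were called in that comparison, against 21 in the main fit. Besides the genes named in the report the block changed no call. Genotype counts were 0 in the main test. DESeq2 gave 3 genes in fibroblasts, 3 in myoepithelial cells and 1 in macrophages. No filter on low counts gave 6 in fibroblasts, 1 in endothelial and 13 in myoepithelial cells. Of all genes, that setting called 628 of 19425 in fibroblasts, 38 of 16446 in endothelial and 353 of 16214 in myoepithelial cells. In each of the following settings that called any of the 44, more genes outside the 44 than among them were called, so the calls were not limited to matrix genes. Such fits leave 1 genotype with 1 library, so shares of all genes are not given for them. In myoepithelial cells, a minimum of 2000 UMIs gave 17 and 1 more marker per gate 22, both of which leave out Cre+ replicate 2. Leaving out 1 library gave 0 to 1 genes in fibroblasts, 0 to 11 in mural, 0 to 4 in endothelial and 0 to 16 in myoepithelial cells, 0 in each case in tumor epithelial cells and 0 to 10 in macrophages, where a lone library is assumed to vary like the others. Genotype values changed sign past the threshold only among these refits, in all 5 cases without Cre+ replicate 2, with ranges over the 4 refits of -2.80 to 1.63 for Eln in mural cells and, in macrophages, -2.11 to 1.00 for Col1a1, -2.03 to 1.39 for Col1a2, -2.09 to 1.52 for Col3a1 and -2.37 to 0.97 for Lox. The cause was not tested. Under the upper limits, myoepithelial cells of the genotypes could not be compared, with 1 sum left. No paired analysis was possible because the genotypes share no replicate number. The myoepithelial sums held 10 to 18 cells in 3 libraries, which limits their depth.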
